A study of Homo sapiens with 124 samples.

Results

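Chromosome 1 was followed along both arms in the deposited table of lamina contacts, which holds a ratio of observed to expected reads for consecutive bins of 100 kb (build hg19). Bins of chromosome 1 were taken as members if all cells had a number there and at least 1 cell exceeded 0. Of the 2493 bins of chromosome 1 in the table, 2225 met this rule, 238 had no number and 30 were at 0 in every cell. The 2225 bins are 8.42% of the 26426 bins of the whole table that met the same rule, called usable bins from here on. The longest stretch without numbers, chr1:121500001-142500000, spans 21 Mb and separates 1032 usable bins of the long arm from 1193 of the short arm. It holds the centromere and the block of repetitive heterochromatin beside it, and is called the gap from here on.

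Each sample was 1 cell of KBM7, a near-haploid line from a human chronic myeloid leukaemia, and all are labelled as haploid cells of the single clone 14 expressing Dam fused to LaminB1. Per the labels, methylation was induced for 15 h with 0.5 nM Shield1, a small molecule that stabilises proteins carrying a destabilising domain. The cells were then sorted singly as the smallest 2% of those positive for both Fucci cell cycle markers, and their DNA was amplified with 21 extension steps. Of 124 cells, 118 have a column in the table, and they form 1 group with no control group and no named cultures, so no comparison below has a test and every SD is the spread between cells.

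LaminB1 is a main protein of the nuclear lamina, the meshwork under the inner nuclear membrane. Dam is a bacterial enzyme that methylates adenine in GATC, and as a fusion it marks the DNA that has been near the lamina in the living cell. Large blocks of the genome that touch the lamina, known as lamina-associated domains, are mostly poor in genes, weakly transcribed and late replicating. Gene-rich, active DNA lies mostly in the nuclear interior. In single cells a domain may touch the lamina in nearly every cell or only in some of them.

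Values of 1 or more, which stand for reads equal to or above the expectation, were called contacts. For each cell the contact share gives the part of its usable bins called, in percent, and for each bin the contact frequency gives the part of the 118 cells that made the contact there. Whole reads could be recovered from the ratios of the usable bins, and only these are counted as reads below. They numbered 28372 in cell 43 to 385661 in cell 100, with a median of 135782.5 per cell. In the median bin of chromosome 1 and the median cell, a value of 1 stood for 5.70 reads. It stood for under 3 reads in 14 cells and in 83 bins of chromosome 1, where single reads decide the call. Cells numbered 96 to 124 (28 cells) stood apart from those numbered 1 to 94 (90 cells). On chromosome 1, bins without any read made up a mean of 32.6% over cells 96 to 124, against 59.1% over cells 1 to 94, with median read numbers of 161506 and 133746.5. The labels do not say what the numbering reflects, so values for both sets stand beside the main results and beside several stretches that differ between them.

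Chromosome 1 was in contact less than the rest of the genome in nearly every cell. Its contact share was 26.0% ± 5.94, against 33.6% ± 5.59 for all other chromosomes together (SD, n = 118 cells). The other chromosomes, also called the rest, are those with usable bins, and chromosome 8 is not among them. Chromosome 15 has only 512 usable bins, and chromosomes 9 and 22 are carried as the sequences 9:22 and 22:9. The share on chromosome 1 ran from 10.0% in cell 73 to 40.2% in cell 29, with a median of 26.4%. On the other chromosomes it ran from 18.6% in cell 89 to 43.4% in cell 97, with a median of 34.7%. The ranges overlapped across cells, yet within a cell chromosome 1 was the lower of the pair in 112 of 118 cells. The difference, chromosome 1 minus the rest, was -7.61 ± 4.70 points. It was above 0 in cells 47, 21, 42, 37, 98 and 62, and cell 47 had the highest difference, with 31.0% on chromosome 1 and 23.6% on the rest. The mean difference was -8.36 points over cells 96 to 124, against -7.37 points over cells 1 to 94.

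Among the 22 chromosome sequences of the table, chromosome 1 ranked 16 from the highest mean contact share. Chromosome 1 minus chromosome 4, which ranked first, was -20.2 ± 7.38 points, and chromosome 1 was the lower in 118 of 118 cells. Against chromosome 17 the difference was 16.6 ± 6.73 points and against chromosome 19 it was 23.1 ± 6.34 points, with chromosome 1 the higher in 118 of 118 cells in both cases. Of the chromosomes most like it in size, chromosome 2 exceeded it in 105 cells (chromosome 1 minus chromosome 2, -8.85 ± 7.74 points) and chromosome 3 in 114 cells (-11.3 ± 7.00 points). Chromosome 1 carries 2061 protein-coding genes in the RefSeq annotation of GRCh38.p14, or 8.27 per Mb of table length, rank 6 from the highest among the 19 chromosomes that could be counted. Over those 19 chromosomes, Pearson's r between gene density and mean contact share was -0.838 and Spearman's rho was -0.667. This describes chromosomes that share the same 118 cells and libraries.

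The long arm had the higher contact share in most cells. It was 28.7% ± 7.18 on the long arm, against 23.7% ± 7.06 on the short arm (SD, n = 118). The long arm ran from 9.98% in cell 89, through a median of 28.4%, to 45.6% in cell 29. The short arm ran from 0.335% in cell 66, through a median of 25.4%, to 35.5% in cell 29. The arms overlapped widely across cells. Long minus short was 5.07 ± 7.85 points, above 0 in 92 cells and below 0 in 26 cells, so its mean was smaller than its spread between cells. It reached 33.0 points in cell 119, with 42.1% on the long arm and 9.05% on the short arm, and -13.6 points in cell 116, with 15.7% and 29.3%. In cells 96 to 124 the means were 32.1% on the long arm and 26.0% on the short arm, and in cells 1 to 94 they were 27.7% and 22.9%, so the order of the arms was the same in both sets. Both arms were mostly below the rest of the genome, the long arm in 92 cells and the short arm in 115 cells.

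**Figure D1:**
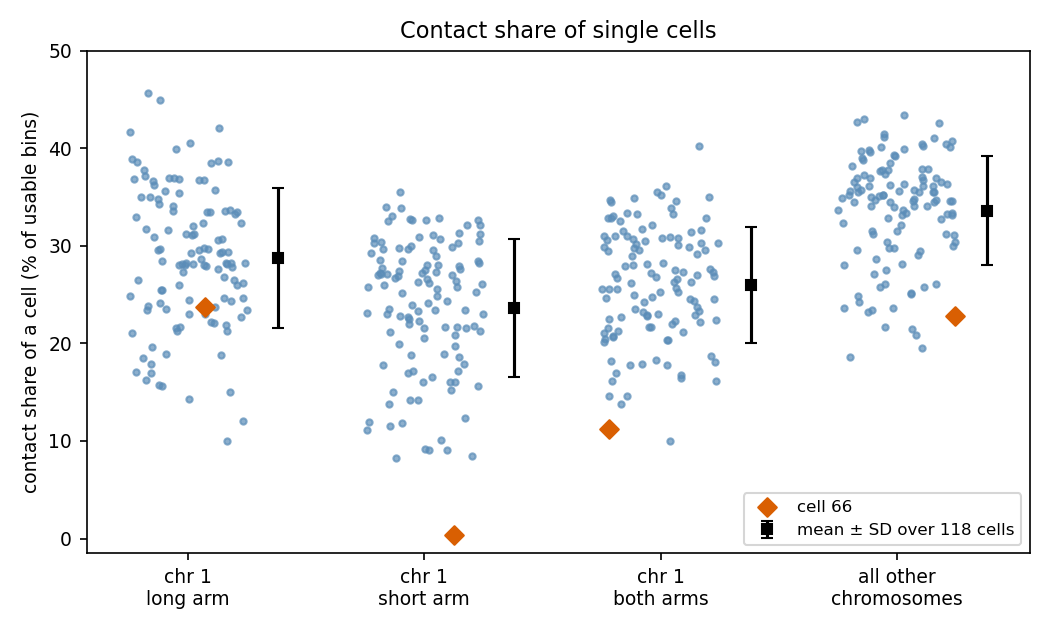
Contact share (percent of usable bins with a value of at least 1) of each of 118 cells on the long arm, the short arm and both arms of chromosome 1 and on all other chromosomes. Points are cells, the diamond is cell 66 and black squares with bars are the mean and SD over 118 cells; the short arm of cell 66 lies at 0.335% while its long arm, at 23.7%, lies among the other cells.

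Chromosome 1 held fewer bins that touched the lamina in nearly every cell and more that hardly did so in any. In contact in at least 80% of cells were 228 of its 2225 bins, or 10.2%, where the whole table gave 15.1%. By arm this was 11.0% of the long arm and 9.56% of the short arm, with 114 bins on each. At the other end, 1086 bins (48.8%) were in contact in at most 5% of cells, where the whole table gave 38.8%. This class held 41.6% of the long arm and 55.1% of the short arm. No contact in any cell was seen in 655 bins (29.4%), against 22.3% of the whole table, again with a smaller part of the long arm (21.3%) than of the short arm (36.5%). For a count of 0 of 118 cells, the exact Clopper-Pearson 95% interval reaches up to a frequency of 3.08%, for counting error of cells only.

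Between those ends, 638 bins (28.7%) were in contact in 20 to under 80% of cells, against 33.9% of the whole table. The long arm had 33.6% of its bins in this class, close to that background, and the short arm 24.4%. Bins in contact in 40 to under 60% of cells made up 9.57% of chromosome 1, near the 8.81% of the whole table, with 11.7% on the long arm and 7.71% on the short arm. The class above 5 to under 20% held 12.3% of the bins both on chromosome 1 and in the whole table. Of all contacts counted on chromosome 1, the bins at 20 to under 80% gave 59.6% and those at 80% or more gave 33.9%. Over all chromosomes the same classes gave 55.8% and 39.2%.

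**Figure D2:**
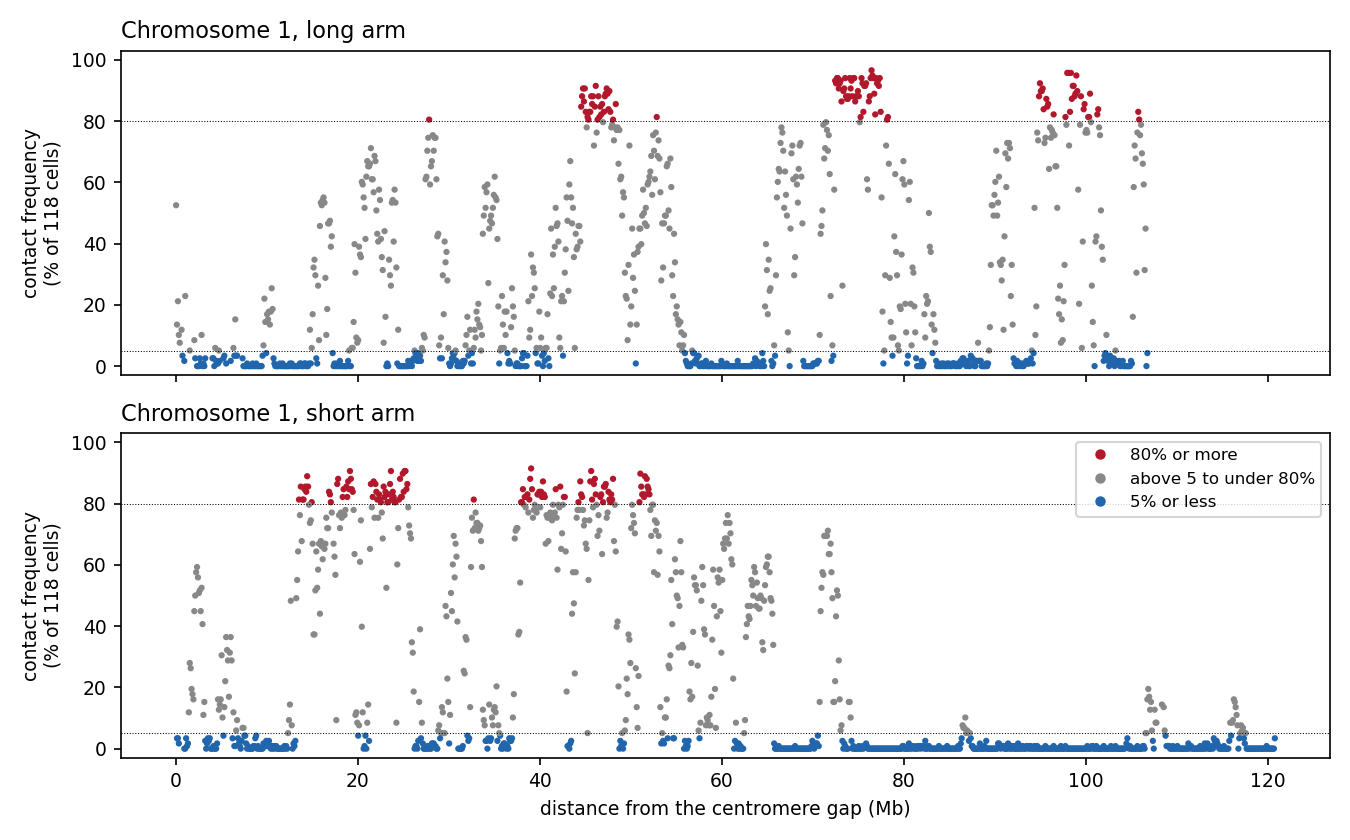
Contact frequency (percent of 118 cells) of each usable 100 kb bin of chromosome 1 against its distance from the centromere gap in Mb, for the long arm (1032 bins, top) and the short arm (1193 bins, bottom), with dotted lines at 80% and 5%. High bins gather in blocks between stretches near 0, and the outermost 471 bins of the short arm hold none above 19.5%.

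The outer part of the short arm was almost free of contacts. Before the first bin at 20% or more, 471 usable bins (chr1:700001-48600000) made up 21.2% of the bins of chromosome 1 and gave 0.940% of its contacts. Their mean frequency was 1.16% ± 1.70 (SD, n = 118 cells), and 326 of these bins had no contact in any cell. The mean was 2.90% over cells 96 to 124, against 0.613% over cells 1 to 94. This part is known to be among the most gene-dense of the chromosome. It includes 6 of the 12 longest rare stretches of the chromosome, a rare stretch being a series of neighbouring usable bins at 5% or less. The longest, chr1:17200001-29900000, spanned 12.7 Mb, averaged 0.153% and had no contact at all in 107 of 118 cells. Over the 12 longest rare stretches the means were 0.335% to 1.86% in cells 96 to 124, against 0.0175% to 0.507% in cells 1 to 94. The next longest, chr1:35100001-47300000 with 12.2 Mb, averaged 0.264% and had none in 97 cells. The stretches chr1:5700001-12800000 (7.1 Mb, 0.477%), chr1:30000001-34200000 (4.2 Mb, 0.444%) and chr1:700001-3900000 (3.2 Mb, 0.132%) lay in the same part, as did chr1:15000001-17100000 (2.1 Mb, 0.444%).

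Small rises interrupted this part. At chr1:14300001-14800000 the mean frequency was 16.1%, with 82 cells without contact and 5 cells in which the whole stretch was in contact. At chr1:4900001-5300000 it was 14.0%, with 89 cells without contact and 7 with the whole stretch. These rises leaned on the later-numbered cells. The first averaged 33.6% over cells 96 to 124 against 10.7% over cells 1 to 94, and the second 32.1% against 8.33%. In windows of 10 Mb, the means of the first 2 windows were 4.65% and 5.11% over cells 96 to 124, against 0.800% and 1.04% over cells 1 to 94. Those are also the cells with fewer bins without reads, and the part of that difference in these values was not tested.

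Nearer the gap the short arm alternated between domains and rare stretches. A stretch of bins at 50% or more, chr1:49400001-50600000, averaged 64.0% ± 37.4, and the rare stretch chr1:50800001-55800000 (5 Mb, 0.339%) followed it. The window of 50 to 60 Mb had a mean share of 20.0% ± 13.8 (SD, n = 118 cells). The windows then gave 40.1% ± 19.2 for 60 to 70 Mb, 59.1% ± 18.4 for 70 to 80 Mb, 45.7% ± 15.3 for 80 to 90 Mb, 42.8% ± 13.4 for 90 to 100 Mb and 51.8% ± 15.0 for 100 to 110 Mb. Toward the gap the level was lower, at 11.0% ± 9.40 in the window of 110 to 120 Mb, and the rare stretch chr1:109200001-114000000 (4.8 Mb, 0.794%) lay mostly there. From its first to its last bin at 80% or more (chr1:69400001-108000000), the short arm held 17.3% of the usable bins of chromosome 1 and gave 34.8% of its contacts.

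The long arm began low beside the gap and was then raised in separate blocks. The windows of 150 to 160 Mb and 160 to 170 Mb had mean shares of 9.59% ± 8.45 and 21.6% ± 14.4. In the first of these lie the rare stretches chr1:149800001-152100000 (2.3 Mb, 0.368%) and chr1:153200001-157200000 (4 Mb, 0.275%). The windows of 180 to 190 Mb and 190 to 200 Mb reached 40.6% ± 13.4 and 40.8% ± 17.4. A rare stretch of 6.7 Mb at chr1:199300001-206000000 averaged 0.430%, with no contact in 102 cells. The window of 210 to 220 Mb then had the highest mean of all windows of chromosome 1, 61.2% ± 13.5, from 22.0% to 87.0% of its bins over cells. Further out lay the rare stretch chr1:226000001-230600000 (4.6 Mb, 0.737%) and the windows of 230 to 240 Mb, at 32.5% ± 11.7, and beyond 240 Mb, at 41.4% ± 11.7.

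The ends of the chromosome differed from each other. The last 2 Mb of usable bins of the long arm averaged 45.8% ± 23.3 and the first 2 Mb of the short arm 0.212% ± 1.01 (SD, n = 118 cells). Near the long-arm end, chr1:247600001-249100000 averaged 60.7% ± 30.6 with bins of up to 83.1%, and more than 50% of it was in contact in 85 cells. It had no contact in 13 cells, and averaged 71.0% over cells 96 to 124, against 57.5% over cells 1 to 94. The rare stretch before it, chr1:245800001-247600000, averaged 0.565%, and the outermost 2 bins averaged 2.12%. This end is known for a cluster of olfactory receptor genes, which encode odorant receptors of the nose. In the order of RefSeq genes on GRCh38.p14, 43 of the last 50 protein-coding genes of chromosome 1 are olfactory receptors, of 61 on the whole chromosome. No position on hg19 was taken from that annotation.

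Beside the gap itself values rested on few reads. The first usable bin of the long arm, chr1:142500001-142600000, was in contact in 52.5% of cells, but there a value of 1 stood for 0.214 reads, so any read made a contact. The bins of the long arm within 2 Mb of the gap averaged 15.0% ± 14.7, with a value of 1 worth 0.134 reads in the median bin. They averaged 22.5% over cells 96 to 124, against 12.7% over cells 1 to 94. Within 2 Mb of the gap on the short arm, where it was worth 4.86 reads, they averaged 9.56% ± 13.1.

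The 12 longest stretches of neighbouring bins at 80% or more, called frequent stretches, were spread over both arms, with 7 on the long arm and 5 on the short arm. The longest was chr1:215800001-217600000 on the long arm, 1.8 Mb with a mean of 90.0% ± 16.9. It was in contact whole in 61 cells, in more than 50% of its bins in 112 cells and not at all in 1 cell. The next, chr1:218600001-220000000, spanned 1.4 Mb with 91.0% ± 17.2 and had some contact in all 118 cells. Together with chr1:217700001-218400000 (89.5% ± 19.7) and chr1:214900001-215700000 (92.1% ± 17.3), these made a nearly continuous block. Over chr1:214800001-220100000, where every bin was at 20% or more, the mean was 86.7% ± 13.9, and its 53 bins, 2.38% of the usable bins of chromosome 1, gave 7.94% of its contacts.

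Further out on the long arm, chr1:240700001-241600000 averaged 90.1% ± 19.9 and had some contact in all 118 cells. Nearer the gap, chr1:189500001-190300000 averaged 87.1% ± 21.6 and chr1:187700001-188400000 averaged 84.3% ± 24.7. These 2 were lower in the later cells, with 79.5% and 74.0% in cells 96 to 124 and 89.4% and 87.5% in cells 1 to 94. Most of the other frequent stretches were also lower in cells 96 to 124, by less. The exceptions were chr1:215800001-217600000, chr1:217700001-218400000, chr1:218600001-220000000 and chr1:106900001-107600000, which were higher there. The whole window of 180 to 190 Mb was lower, with 36.3% over cells 96 to 124, against 41.9% over cells 1 to 94. The window of 100 to 110 Mb on the short arm was lower as well, 48.3% and 52.8%. The other 21 of the 23 windows were higher in cells 96 to 124.

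On the short arm the longest frequent stretch was chr1:69400001-70600000, 1.2 Mb with a mean of 84.8% ± 25.9, whole in 63 cells and without contact in 5 cells. The stretches chr1:96000001-97000000 and chr1:97300001-98300000 averaged 86.0% ± 22.3 and 83.0% ± 24.0. The stretches chr1:102000001-102800000 and chr1:106900001-107600000 averaged 85.9% ± 22.3 and 84.5% ± 27.6. All 5 of these had between 2 and 5 cells with no contact, and the 7 of the long arm had 0 to 3 such cells.

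Genes known to lie in some of these stretches are named here from general knowledge of hg19 and not from the files. They were picked by hand, with no count of similar genes elsewhere, so nothing follows about the kind of gene. RGS7, a regulator of G protein signalling in neurons, lies in chr1:240700001-241600000. DPYD, the enzyme that breaks down uracil and thymine, lies mostly in chr1:97300001-98300000, and OLFM3, a secreted olfactomedin-domain protein, in chr1:102000001-102800000. In the RefSeq gene order of GRCh38.p14, OLFM3 neighbours COL11A1, a fibrillar collagen gene. No level of expression was measured here.

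Single bins reached up to 96.6%. The highest bin of the long arm, chr1:218900001-219000000, was in contact in 114 of 118 cells (exact Clopper-Pearson 95% interval 91.5% to 99.1%, counting error of cells only). The highest of the short arm, chr1:82400001-82500000, was in contact in 108 cells, or 91.5% (85.0% to 95.9%). These intervals overlapped. The next 3 bins, chr1:240400001-240500000, chr1:240500001-240600000 and chr1:240800001-240900000, were each in contact in 113 cells, and the 8 highest bins of the chromosome were all on the long arm.

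The longest stretches of bins at 40 to under 60% showed how a middle frequency was made up over cells. On the short arm, chr1:57100001-58800000 spanned 1.7 Mb with a mean of 49.2% ± 40.1. It was whole in 23 cells, without contact in 29 cells and more than 50% in contact in 61 cells. It is known to overlap DAB1, an adaptor of reelin signalling in migrating neurons. The stretch chr1:118500001-119500000 averaged 50.8% ± 38.1, with 26 cells whole and 24 without contact. On the long arm, chr1:193700001-194400000 averaged 51.5% ± 39.8 and chr1:176200001-176800000 averaged 53.1% ± 40.6. A stretch of the same length, chr1:176900001-177500000, averaged 49.3% ± 40.0 and tied for the last place among the 6 longest.

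Some middle stretches differed between the sets of cells. The stretch chr1:158300001-158900000, in a part known for the CD1 genes, which encode lipid-presenting molecules, and for olfactory receptor genes, averaged 52.4% ± 41.5. Cells 96 to 124 averaged 67.3% there and cells 1 to 94 averaged 47.8%. For the stretch with DAB1 these means were 62.2% and 45.1%. In contrast chr1:193700001-194400000 had 47.4% and 52.7%. The part that the smaller number of bins without reads in cells 96 to 124 plays in these values was not tested.

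**Figure D3:**
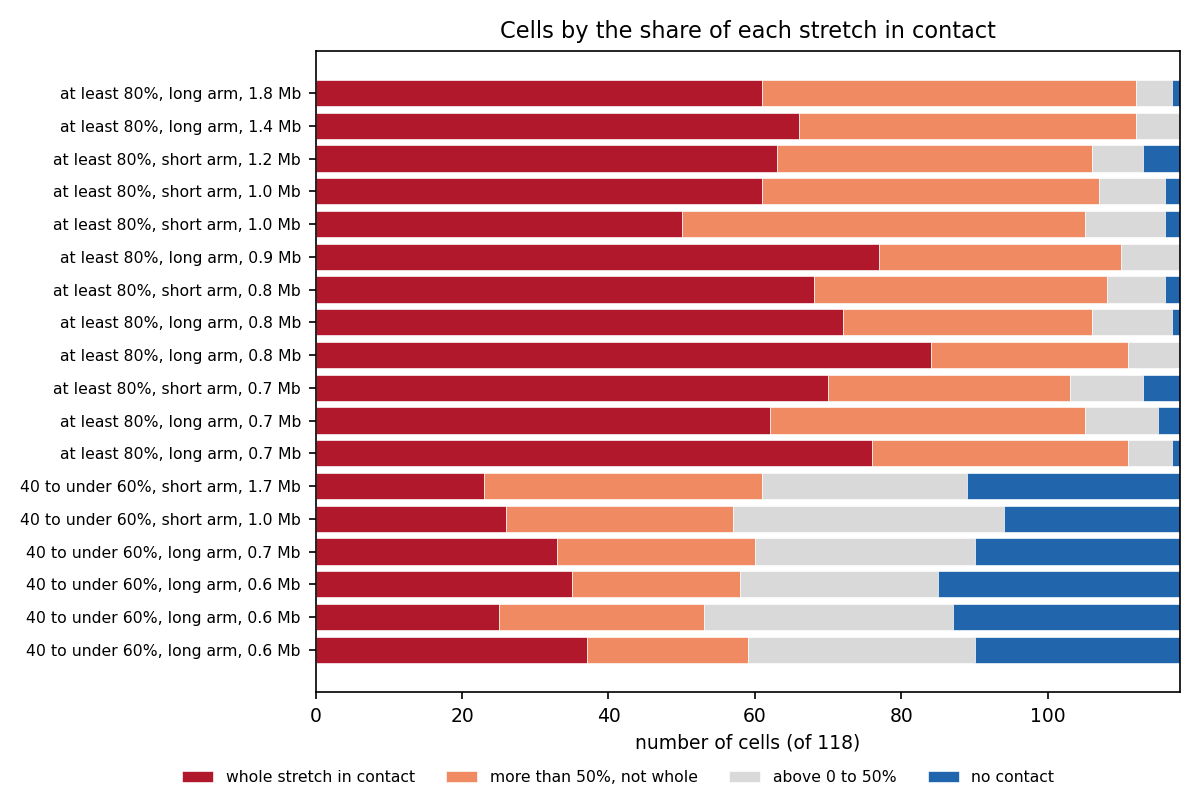
Number of cells, of 118, in which a stretch was wholly in contact, more than 50% but not wholly, above 0 to 50%, or not at all, for the 12 longest stretches of bins at 80% or more and the 6 longest at 40 to under 60%, each named by class, arm and length in Mb (4 middle stretches tie at 0.6 Mb, of which the 3 nearest the gap are shown). Frequent stretches had 0 to 5 cells without contact, and middle stretches had 24 to 33. The classes were set by frequency over the same cells, so much of this contrast follows by construction.

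Some borders fell between neighbouring bins. Over 2203 pairs of neighbouring usable bins the median step in frequency was 1.69 points, while 22 steps were of at least 50 points, 10 of them on the long arm. The largest lay on the long arm between chr1:241900001-242000000, at 88.1%, and chr1:242000001-242100000, at 5.93%. In 97 cells only the first of these bins was in contact, in 7 cells both, in 14 cells neither, and in 0 cells only the second. No cell thus had the contact beyond the border alone. On the short arm, the step from chr1:100100001-100200000 (65.3%) to chr1:100200001-100300000 (2.54%) had 75 cells in which only the first was in contact and 1 cell in which only the second was. The step from chr1:66600001-66700000 (61.9%) to chr1:66700001-66800000 (3.39%) had 69 and 0.

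Some steps came in pairs around a single low bin inside a domain. The bin chr1:76200001-76300000 on the short arm was at 5.08%, between neighbours at 55.1% and 65.3%. The bin chr1:97200001-97300000 was at 8.47%, between 60.2% and 80.5%, and in 85 cells its neighbour chr1:97300001-97400000 was in contact while it was not. On the long arm, chr1:215700001-215800000 was at 26.3% between 86.4% and 89.8%. In these 3 bins a value of 1 stood for 4.38, 6.02 and 5.72 reads, near the median bin of the chromosome. A further low bin, chr1:103800001-103900000 at 9.32%, had a value of 1 worth 0.0178 reads, so its frequency cannot be set beside its neighbours. Single raised bins were found as well. The bin chr1:192300001-192400000 was at 72.0% between neighbours at 33.1% and 13.6%, and chr1:236800001-236900000 was at 51.7% between 4.24% and 10.2%.

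Where a bin was in contact more often, its value in the cells in contact was also higher. The median value over cells in contact, taken per bin, had a median of 2.52 in bins at 80% or more, 2.01 in bins at 20 to under 80% and 1.43 in bins under 20% with at least 5 cells in contact (228, 638 and 304 bins). The other chromosomes gave 2.50, 1.99 and 1.45. The levels of chromosome 1 were thus near those of the rest of the table in each class, with calls and levels taken from the same ratios. Named stretches followed the same order, from 2.99 in chr1:214900001-215700000 to 1.08 in chr1:50800001-55800000.

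Contacts came in runs of neighbouring bins. Each cell had 124 ± 25.7 runs on chromosome 1 with a mean length of 0.476 ± 0.113 Mb, against 0.509 ± 0.104 Mb on the other chromosomes (SD, n = 118). Chromosome 1 had the shorter mean in 81 of 118 cells. By arm the mean length was 0.458 ± 0.107 Mb on the long arm and 0.500 ± 0.163 Mb on the short arm. Runs of at least 1 Mb held 49.3% ± 13.6 of the contact bins of chromosome 1, and runs of a single bin held 8.92% ± 4.35. Mean run length was 0.431 Mb over cells 96 to 124, against 0.490 Mb over cells 1 to 94.

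The longest run of a cell was 3.68 ± 1.14 Mb. The shortest was 1.1 Mb, in cell 73, and the longest 6.4 Mb, in cell 26, where it covered chr1:185100001-191500000. The next longest were 5.8 Mb at chr1:78600001-84400000 in cell 85 and 5.6 Mb at chr1:186400001-192000000 in cell 46. The same places gave the longest run in many cells. It overlapped chr1:187000001-191500000 in 31 cells, chr1:78600001-83700000 in 28 cells and chr1:215800001-220100000 in 22 cells. These are the 3 stretches of at least 4 Mb in which every bin was at 50% or more. Stretches and runs come from the same calls in the same cells, so much of this overlap follows by construction.

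**Figure D4:**
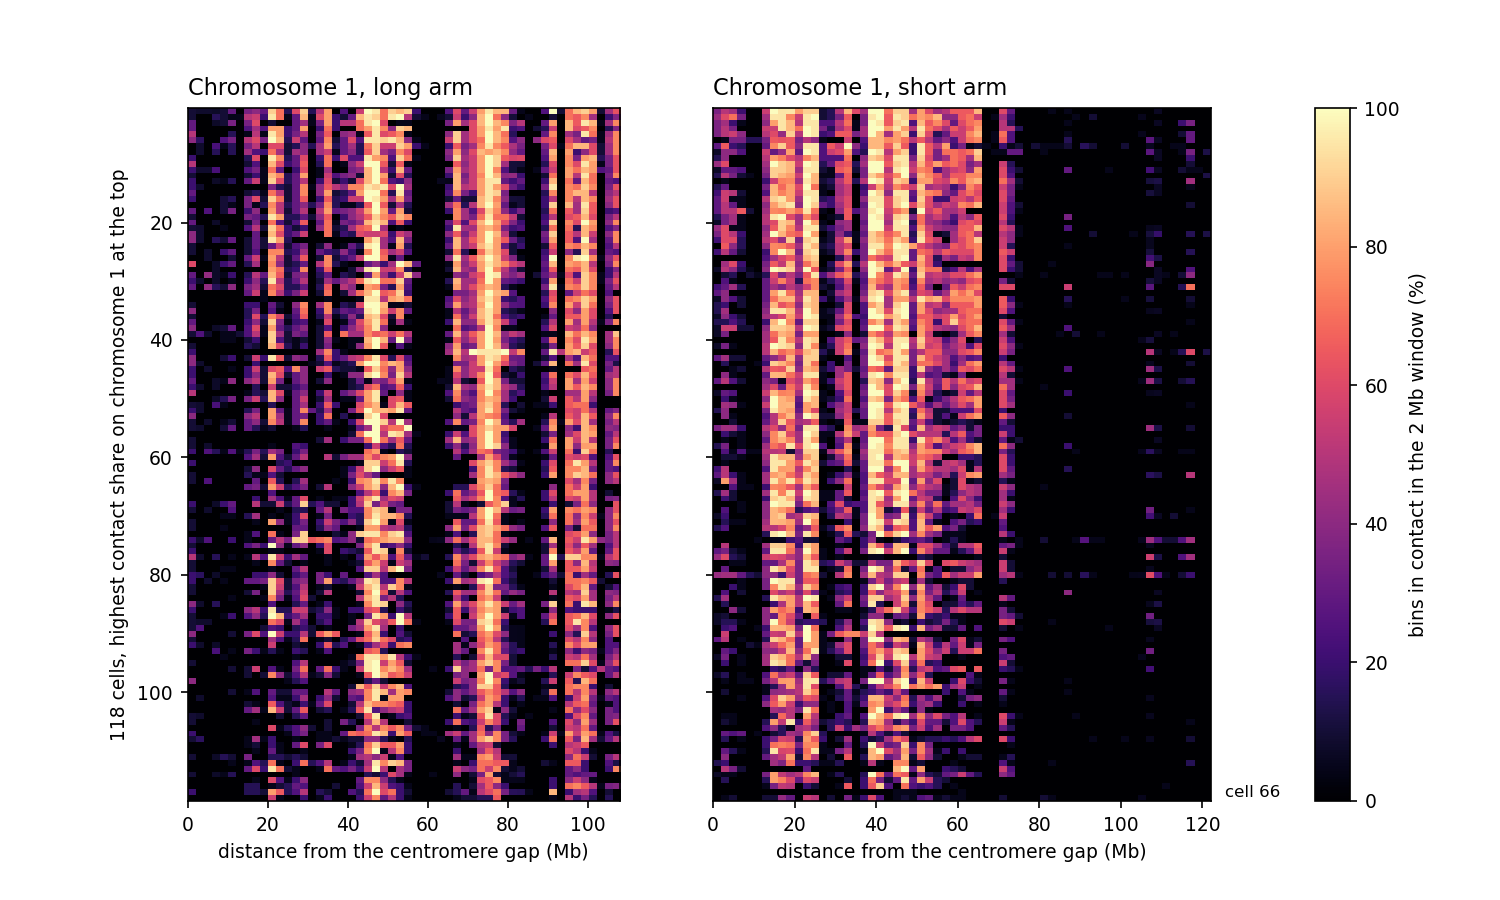
Percentage of usable bins in contact in consecutive windows of 2 Mb of the long arm (left) and the short arm (right) of chromosome 1, by distance from the centromere gap, with 1 row for each of 118 cells and the cell with the highest contact share on chromosome 1 at the top. Bright columns are the same in most cells, and the row of cell 66 is dark along the short arm, where its share was 0.335%.

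The pattern of contacts along the chromosome was similar from cell to cell. Pearson's r, over bins, between a cell's contacts and the contact frequencies among the other cells had a median of 0.768 on chromosome 1 and 0.738 on the other chromosomes, and was the higher on chromosome 1 in 74 of 118 cells. On the long arm the median was 0.724 and on the short arm 0.790, with the long arm the higher in 27 cells. The lowest values on chromosome 1 were 0.404 in cell 66 and 0.430 in cell 119.

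The contacts of separate stretches varied together over cells, most closely on the short arm. Domains were taken here as stretches of at least 0.5 Mb with every bin at 50% or more, which gave 35, with 17 on the long arm and 18 on the short arm. For each pair the share in contact was correlated over the 118 cells, after the contact share of the other chromosomes had been removed by regression. Pearson's r averaged 0.174 in the 136 pairs of the long arm, 0.329 in the 153 pairs of the short arm and 0.0579 in the 306 pairs on different arms. It was above 0 in 123, 152 and 210 of these pairs. The distances differ, up to 89.2 Mb on the long arm, up to 68.2 Mb on the short arm and 39.0 to 197.5 Mb across the gap, so these means mix arm and distance. These are descriptions over cells that share depth and library, and pairs that share a domain are not independent.

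At 5 to 20 Mb, r averaged 0.226 on the long arm (27 pairs) and 0.329 on the short arm (55 pairs). At 50 to 70 Mb, which all 3 kinds of pairs cover, it averaged 0.0914 on the long arm (19 pairs), 0.207 on the short arm (8 pairs) and 0.0216 across the gap (23 pairs). At 70 to 90 Mb the order of long arm and gap was the other way round, with 0.0120 on the long arm (15 pairs) and 0.0489 across the gap (32 pairs). At these distances pairs of the long arm thus showed no steady difference from pairs across the gap. At 5 Mb or more, the highest r was 0.597, between chr1:78600001-83700000 and chr1:106400001-108200000 on the short arm, 22.7 Mb apart. The lowest was -0.197, between chr1:208500001-209600000 and chr1:237100001-239400000 on the long arm, 27.5 Mb apart. Across the gap the highest was 0.396, between chr1:101800001-103800000 and chr1:215800001-220100000, 112 Mb apart. Without cell 66 the means over all pairs were 0.175 on the long arm, 0.312 on the short arm and 0.0562 across the gap.

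**Figure D5:**
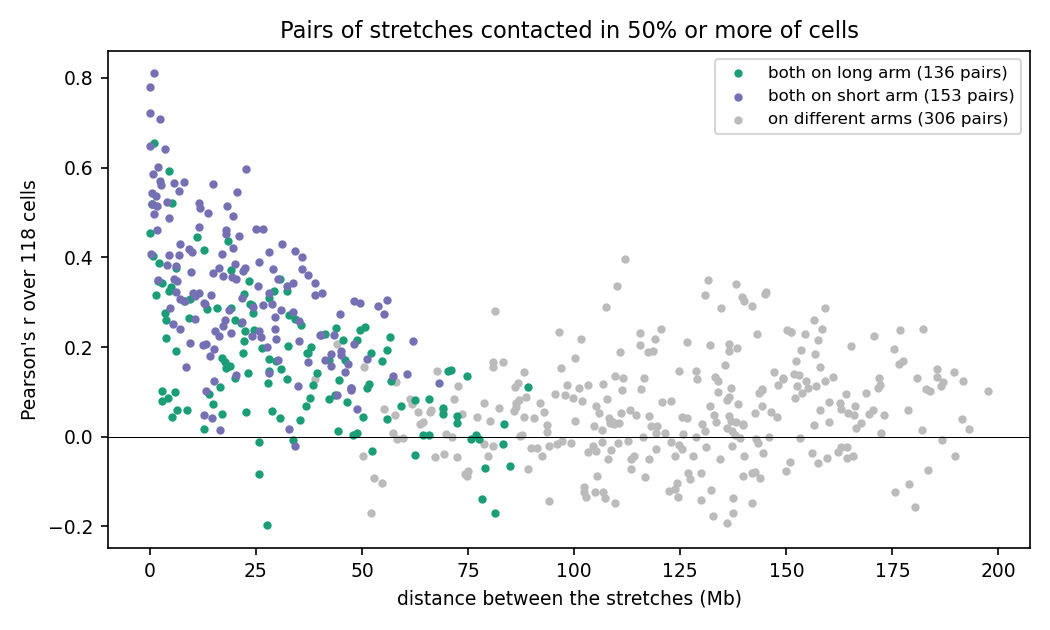
Pearson's r over 118 cells of the share in contact, with the contact share of the other chromosomes removed, against the distance in Mb between domains, for 136 pairs on the long arm, 153 on the short arm and 306 on different arms. Pairs 1 to 5 Mb apart averaged 0.307 on the long arm and 0.521 on the short arm, and pairs on different arms, which lie 39.0 to 197.5 Mb apart, averaged 0.0579.

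Bin pairs at 20 to under 80% (347 bins of the long arm and 291 of the short arm) were correlated over cells in the same way. Neighbouring bins had a mean r of 0.515 on chromosome 1, and the 19 other chromosomes averaged 0.486, from 0.409 to 0.557. At 5.1 to 20 Mb it was 0.119 on chromosome 1 and 0.126 on the others. At 20.1 to 50 Mb it was 0.0502 on the long arm, 0.106 on the short arm and 0.0835 across the gap, where the pairs across the gap (1408 pairs) exceeded those of the long arm. At 50.1 Mb or more it was 0.0239 on the long arm, 0.110 on the short arm and 0.0135 across the gap. At that distance all pairs of chromosome 1 averaged 0.0172, and 18 other chromosomes averaged 0.0480, the lowest of them 0.00879. Of the 115976 pairs of chromosome 1 in this class, 99569 lay across the gap. Single arms and shorter chromosomes cannot hold the greatest distances, so the means of this class mix arm, chromosome and distance.

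The contact shares of the whole arms were loosely related over cells. With the contact share of the other chromosomes removed, Pearson's r between the arms was 0.116 (n = 118 cells), and 0.132 without cell 66. Within cells 96 to 124 it was -0.0104, and within cells 1 to 94 it was 0.179. Before that removal it was 0.393. With the rest of the genome r was 0.564 for the long arm and 0.555 for the short arm. The rest averages over far more bins than an arm and carries less counting noise. These r therefore cannot be ranked against the r between the arms. The share of chromosome 1 also moved with depth, with r of 0.616 against the number of reads. Chromosome 1 minus the rest had an r of -0.194 with reads, and long minus short had an r of 0.0762.

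Cell 66 had almost no signal on the short arm while its long arm was within the range of the other cells. On the long arm 245 of 1032 bins were in contact and 344 held reads, 1899 reads in all. The short arm had 4 of 1193 bins in contact and 55 with reads, 63 reads in all. Of the 114 frequent bins of each arm, cell 66 had 66.7% in contact on the long arm, where the median cell had 91.7%, and 0.877% on the short arm, where the median cell had 91.2%. The next lowest cell on the short arm was cell 119, with 20.2%. The 4 contacts of the short arm lay at chr1:59600001-59700000, chr1:73300001-73400000, chr1:73900001-74000000 and chr1:77400001-77500000, with 2 or 3 reads each.

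Over all usable bins, cell 66 had 46574 reads. Cell 49, with 29049 reads, had 432 reads and a contact share of 9.05% on the short arm. Cell 73, with 35034 reads, had 481 reads and 8.30%. In cell 66 bins with reads made up 33.3% of the long arm and 4.61% of the short arm. Among the other chromosomes, leaving out 15, 17, 19 and 22:9, arms under 1% in contact were found 31 times, in 20 cells. An arm with almost no contacts was thus not limited to chromosome 1. Most of these arms had fewer usable bins than the short arm of chromosome 1, and they differed in reads. Bins with reads made up 0.218% of the long arm of 9:22 in cell 77 and 42.4% of the short arm of chromosome 12 in cell 112. The cause of the low short arm in cell 66 was not tested. Leaving out cell 66 changed the contact share of the short arm to 23.9% and long minus short to 4.91 points.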

How the data were processed

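Single-cell DamID of Dam-LaminB1 was analysed in 118 haploid KBM7 cells. Samples numbered 33, 34, 44, 86, 95 and 120 were not analysed here. The authors deposited a table of observed over expected ratio values per 100 kb bin, a unit read from its name and values. The sources used here do not give how the expected value was made. The submitters' processing notes name cutadapt, Bowtie2 2.1.0 and the build hg19. A profile of unfused Dam was not used here, so accessibility and lamina contact cannot be told apart beyond what the expectation corrects.

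Whole reads were recovered by finding, for each bin and each cell, the step that a single read adds. All values above 0 came out whole (100%, tolerance 0.02 reads). The steps were fitted so that values come out whole, so this share is no separate check. The recovery was tested on simulated data. Reads of a bin that share a common factor over all cells cannot be told apart from fewer reads. Contacts, frequencies, stretches and runs were computed in Python 3.11.15 with numpy 2.4.6, scipy 1.17.1 and pandas 2.3.3. Runs and stretches end at bins without numbers. Intervals cover counting error only, and reads carry no molecular identifiers.

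With 1 group of cells and no named cultures, no test was made. The text names the 12 longest stretches at 80% or more, the 12 longest at 5% or less, the 6 longest at 40 to under 60%, the largest of the 10 greatest steps, the highest bins, and windows of 10 Mb. The ends, the sets of cells by number, single low or raised bins and cell 66 were chosen after their values were seen. Of 4 middle stretches tied at 0.6 Mb, the first 3 by position were kept. A single stretch of the middle class is not reported here. Fixed gene lists were not applied, because no hg19 annotation was used here, and no sequence is printed. The members and lists were chosen with earlier results of these data known.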

Additional observations from a re-analysis of the deposited data

How the results depend on the processing

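Over 13 alternatives, 72 of 85 recomputed values stayed within set limits. These were 1 SD over cells, 1.5 times for a share of bins and, for the correlation of the arms, its standard error. The SD over cells is a wide limit, being the spread of single cells and not the error of a mean. For long minus short it was 7.85 points, above the result of 5.07 points itself, so the count says little about stability. Long minus short stayed above 0 in 9 of 9 alternatives, and chromosome 1 minus the rest stayed below 0 in 9 of 9. With a contact value of 0.5, the contact share was 33.6% on chromosome 1 and 37.2% on the long arm, and 18.5% of bins were at 80% or more. With a contact value of 2, it was 14.8% on chromosome 1, 16.5% on the long arm and 13.3% on the short arm, 0.270% of bins were at 80% or more, and the mean run was 0.274 Mb. The level of a share or class thus depends on the contact value. A limit of 90% left 2.07% of bins as frequent. The mean run was 0.362 Mb in the 109 cells thinned to 50000 reads and 0.829 Mb with gaps of 1 bin bridged, which joins runs by construction. The correlation of the arms was 0.393 with the contact share of the other chromosomes not removed. It was -0.0104 in only cells 96 to 124, the reverse of its sign over all cells, with 28 cells, and the cause was not tested. Leaving out cell 66, chosen after seeing the data, moved none of the 9 results beyond these limits. Removing 1 of 118 cells can hardly move a mean by 1 SD over cells, so this says little about stability. The labels give 1 group and no replicate numbers to block on, so samples could not be paired with each other. Differences between arms or chromosomes were paired by cell, as they were taken within each cell.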
